A study of Mus musculus with 8 samples.

Results

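Rab GTPases are the small proteins that give each membrane compartment of the endocytic and secretory routes its identity, and open chromatin at their genes was examined in liver sinusoidal endothelial cells (LSECs) with and without c-Maf. Members were the rows of the deposited ATAC-seq peak table whose gene name was Rab followed by a number and at most a letter and a digit. The rule took 145 of 58522 listed peaks, which belonged to 51 of 17780 genes. ATAC-seq reads regions of open DNA through the adapters that Tn5 transposase inserts there, and each peak is assigned by the authors' annotation to the gene with the nearest transcription start. MafLSEC-KO mice carried floxed alleles of Maf (Maf fl/fl), which encodes the transcription factor c-Maf, together with the Clec4g-iCre transgene. Controls were littermates without Cre that carried Maf fl/fl or Maf fl/wt. Both groups were 12 weeks old and were represented by 4 libraries of LSECs taken from digested liver with magnetic beads against CD146, a surface protein of endothelium. In the liver Clec4g drives Cre mainly in sinusoidal endothelium. The study's methods name 3 mice for the ATAC-seq cells of control and MafLSEC-KO mice, although each group has 4 libraries, and pooling of 3 livers in a cell isolation. The sources do not say which animals stand behind a library, so libraries of a group may share animals. Thus n counts libraries, and a p-value weighs a difference only against library-to-library spread, which can be technical.

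A Rab protein is switched on by an exchange factor that loads it with GTP, and then recruits effectors that tether, move or fuse vesicles. A GTPase-activating protein switches it off, and a lipid anchor added after translation lets it cycle between the membrane and the cytosol. LSECs are known for very active clathrin-mediated endocytosis, by which they clear waste macromolecules from the blood through early endosomes, late endosomes and lysosomes. Different Rabs mark these steps, such as RAB5 on early endosomes, RAB11 on recycling endosomes and RAB7 on late endosomes.

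The counts over all listed peaks came to 6783573, 11208146, 9735410 and 11614365 in MafLSEC-KO replicates 1 to 4, against 5367124, 8159726, 5529802 and 13364062 in control replicates 1 to 4. Rab peaks took 0.323% to 0.333% of them in MafLSEC-KO and 0.323% to 0.341% in controls. The promoter peak of Maf itself, which checks the labels, held 18.4, 11.4, 13.7 and 8.36 CPM in MafLSEC-KO libraries, against 57.02, 69.4, 62.9 and 81.9 CPM in control libraries (edgeR log2 fold change -2.42, SE 0.19, adjusted p = 2.25e-07), where CPM is the read count scaled to a common, TMM-adjusted library total. All 10 sinusoidal and all 8 pan-endothelial marker genes had listed peaks, and of the sinusoidal markers 1 (Clec4g, the gene whose regulatory sequence drives Cre) was higher and 4 (Dnase1l3, Fcgr2b, Stab2 and Lyve1) were lower in MafLSEC-KO. Only MafLSEC-KO mice carry the Clec4g-iCre transgene, so any reads from its Clec4g sequence cannot be told apart from those of the gene. Summed markers of hepatocytes lay at 151 to 172 CPM in MafLSEC-KO and 147 to 169 CPM in controls (7 of 10 genes measured, Alb, Cyp2e1 and Hnf4a with no listed peak), and those of macrophages at 109.9 to 127 CPM in MafLSEC-KO and 115 to 140.2 CPM in controls (7 of 11 genes, Marco and Vsig4 with no listed peak). Lymphocyte markers lay at 106 to 125 CPM in MafLSEC-KO and 125 to 150.5 CPM in controls (4 of 11 genes, Cd3e with no listed peak). Stellate cell markers lay at 309 to 335 CPM in MafLSEC-KO and 368 to 443 CPM in controls (7 of 9 genes, Lrat with no listed peak), and cholangiocyte markers at 90.1 to 98.1 CPM in MafLSEC-KO and 72.1 to 98.4 CPM in controls (4 of 6 genes, Krt7 and Sox9 with no listed peak). The stellate cell sums did not overlap between the groups, but most of them came from Hgf, which was lower (270.9 to 290.0 CPM in MafLSEC-KO and 328 to 400.4 CPM in controls). The other 6 stellate cell markers overlapped between the groups and did not pass (edgeR adjusted p of 0.47 or more). The cholangiocyte sums overlapped, but their marker Cftr was higher (edgeR log2 fold change 0.72, SE 0.20, adjusted p = 0.0388). It lay at 17.3 to 25.05 CPM in MafLSEC-KO and 8.84 to 16.4 CPM in controls, without overlap. The other 3 cholangiocyte markers overlapped and did not pass (edgeR adjusted p of 0.373 or more). The study's flow cytometry of such isolates found fewer cells positive for LYVE1 and/or CD31, its endothelial markers, in MafLSEC-KO than in controls. Cells positive for CD11b, its macrophage marker, were more frequent in MafLSEC-KO. The sources do not tie these values to single ATAC-seq libraries. The paper also states that its isolates include endothelial cells of large vessels. The part of other cells in the results below was not tested. In such bulk libraries, fewer cells of a type and less open chromatin per cell cannot be told apart.

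Of the 19 Rab peaks that changed, 8 are shown in part because they held letters of interest, on the plus strand of mm10. They were taken around the letters of 3 motifs, printed in capitals: TGCTGAC or GTCAGCA (a core MAF site), TGANTCA (the AP-1 site) and CACGTG (the E-box).
Rab17 intergenic, chr1:90975072-90975283: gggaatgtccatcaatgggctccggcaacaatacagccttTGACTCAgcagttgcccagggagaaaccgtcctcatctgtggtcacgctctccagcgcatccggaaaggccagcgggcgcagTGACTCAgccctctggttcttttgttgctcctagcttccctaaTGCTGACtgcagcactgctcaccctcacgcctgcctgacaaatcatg
Rab7 intergenic, chr6:88053851-88053955: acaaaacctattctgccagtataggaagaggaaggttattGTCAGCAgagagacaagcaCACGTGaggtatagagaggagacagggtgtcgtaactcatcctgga
Rab11a intergenic, chr9:64771446-64771518: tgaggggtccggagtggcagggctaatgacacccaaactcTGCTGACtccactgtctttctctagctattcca
Rab3a, in an intron of Pde4c, chr8:70743458-70743544: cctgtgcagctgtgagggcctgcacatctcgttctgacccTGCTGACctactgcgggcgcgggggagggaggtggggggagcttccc
Rab8b intron, chr9:66886988-66887074: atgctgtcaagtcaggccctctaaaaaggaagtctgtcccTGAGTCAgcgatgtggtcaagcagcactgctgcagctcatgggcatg
Rab44, in an intron of Cpne5, chr17:29171548-29171634: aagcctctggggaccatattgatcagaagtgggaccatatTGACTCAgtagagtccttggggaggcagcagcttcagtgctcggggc
Rab6b, in Slco2a1, chr9:103073027-103073113: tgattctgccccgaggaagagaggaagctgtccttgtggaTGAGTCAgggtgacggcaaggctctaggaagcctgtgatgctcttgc
Rab3b intron, chr4:108910112-108910198: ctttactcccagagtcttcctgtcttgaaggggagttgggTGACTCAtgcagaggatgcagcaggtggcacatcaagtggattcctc
The regions of Rab17, Rab7, Rab11a, Rab3a, Rab8b and Rab44 were lower in MafLSEC-KO, and those of Rab6b and Rab3b were higher. The higher 5′ UTR peak of Rab27b also held an AP-1 match. The wide Rab3a peak held 2 AP-1 and 2 E-box matches outside the stretch shown. In the Rab17 region 2 AP-1 matches stood beside the core MAF match, and in the Rab7 region the core MAF match stood beside an E-box.

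Of the 9 lower Rab peaks 4 held a core MAF match, whereas 0 of the 10 higher Rab peaks and 13 of 125 Rab peaks that did not pass the test held it. Over all tested peaks of the table the match was in 24.6% of lower, 10.7% of higher and 11.2% of the other peaks. Peak widths differ (median 402 bases in the lower and 682 bases in the higher Rab peaks), so the central 300 bases were read as well. There 3 of 9 lower and 0 of 10 higher Rab peaks held the match, beside 15.5% and 4.6% of all lower and higher peaks. Rab peaks as a whole were close to the table in this respect, with the match in 11.5% of 26 promoter peaks and 11.8% of 119 distal peaks, beside 13.2% and 11.8% of all promoter and distal peaks. AP-1 letters were in 3 of the 10 higher and 4 of the 9 lower Rab peaks (40.6% and 22.1% of all higher and lower peaks). Letters of the GATA site, AGATAA, were in 28.6% of Rab distal peaks and 30.4% of all distal peaks. The full palindromic MAF recognition element, TGCTGANTCAGCA, was in 0 of 145 Rab peaks and in 25 distal peaks of the whole table. Both strands were read, and the core MAF and AP-1 letters can overlap. These shares are descriptions of the letters present and carry no test.

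The promoter peak of Rab40b was higher in MafLSEC-KO. Those of Rab5b, Rab36 and Rab37 were higher too, but their calls were lost without some libraries (below). For Rab40b and Rab5b, the 250 bases before their RefSeq starts are shown from 5′ to 3′ of the gene, with CG steps in capitals.
Rab40b, chr11:121388252-121388501, minus strand: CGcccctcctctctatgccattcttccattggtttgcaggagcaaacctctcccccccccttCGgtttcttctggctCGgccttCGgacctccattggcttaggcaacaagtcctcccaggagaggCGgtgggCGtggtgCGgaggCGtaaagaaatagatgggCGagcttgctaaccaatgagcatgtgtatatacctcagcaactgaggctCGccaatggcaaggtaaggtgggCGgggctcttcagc
Rab5b, chr10:128696269-128696518, minus strand: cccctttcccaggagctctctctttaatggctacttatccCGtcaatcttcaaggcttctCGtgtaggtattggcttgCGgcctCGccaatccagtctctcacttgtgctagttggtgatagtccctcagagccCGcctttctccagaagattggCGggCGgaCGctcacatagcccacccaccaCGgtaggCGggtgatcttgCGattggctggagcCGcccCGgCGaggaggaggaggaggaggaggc
The stretches held 11 and 14 CG steps and 57.6% and 59.2% G and C. Their listed promoter peaks had 59.2% and 61.3% G and C, near the median of 61.8% over the 26 Rab promoter peaks (58.6% over all promoter peaks). Of the 51 Rab genes, 42 were matched to a RefSeq promoter of 300 bases. The core MAF letters were in 0 of these 42 and in 4.6% of 27025 promoters, and the E-box was in 9.5% and 7.2%. AP-1 letters were in 2.4% and 7.9% of them, and GATA letters in 2.4% and 11.4%. In the listed promoter peaks the E-box went the other way, with 7.7% of the 26 Rab peaks and 24.3% of all promoter peaks.

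Of the 145 Rab peaks, 26 were annotated as promoter peaks and 119 lay elsewhere, here called distal: 59 in introns, 42 between genes, 9 in 5′ UTRs, 4 in 3′ UTRs, 3 in exons and 2 at gene ends. By gene, 19 Rab genes had both kinds, 6 had promoter peaks alone and 26 had distal peaks alone. The label distal is wide. Of the 119 distal peaks, 19 lay within 1000 bases of the listed start, 18 lay more than 50000 bases away, and the farthest, assigned to Rab28, lay 984829 bases away. By the GENCODE annotation, 63 distal peaks were centred in the body of their Rab gene, 16 only in that of another coding gene and 40 in no coding gene. Rab31 had the most peaks (11), and 15 Rab genes had a single peak. Promoter peaks were wider (median 1102 bases against 490) and held 43.6% to 46.7% of Rab counts in MafLSEC-KO and 40.5% to 45.0% in controls, where all promoter peaks held 32.3% to 34.1% of all counts in MafLSEC-KO and 32.0% to 33.8% in controls.

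Per length, the most open of the 26 Rab peaks annotated as promoter were, in controls, those of Rab40c, Rab8a, Rab5a, Rab3a and Rab5b. Peaks near a start with another annotation were left out of this order. The densest peak counted as distal averaged 105 CPM per kb in controls. Rab8a, which guides vesicles to the plasma membrane and the cilium, averaged 135 ± 9.26 CPM per kb in MafLSEC-KO and 125 ± 14.3 CPM per kb in controls. Rab5a, whose protein drives fusion of early endosomes, averaged 118 ± 19.3 CPM per kb in MafLSEC-KO and 113 ± 16.8 CPM per kb in controls. These levels are densities of reads per kilobase of peak, and each neighbouring pair in this order overlapped over the control libraries. The Rab40b promoter averaged 28.5 ± 2.68 CPM per kb in MafLSEC-KO and 12.4 ± 0.930 CPM per kb in controls (SD, n = 4 each). It was among the least open of these promoter peaks in controls, where it overlapped with the Rab6b promoter. The Rab6b promoter averaged 11.7 ± 1.33 CPM per kb in MafLSEC-KO and 12.5 ± 1.24 CPM per kb in controls. Over the 26 promoter peaks the median density was 32.6 CPM per kb in MafLSEC-KO and 29.9 CPM per kb in controls, and over 118 distal peaks it was 15.9 CPM per kb in MafLSEC-KO and 16.4 CPM per kb in controls.

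For the comparison of groups, counts were summed over all peaks of a gene and fitted with edgeR over 17740 genes, with a gene counted as changed at a Benjamini-Hochberg adjusted p under 0.05. Of the 51 Rab genes, 3 were higher in MafLSEC-KO (Rab40b, Rab27b and Rab5b) and 1 was lower (Rab17). Over all genes 5.58% were higher and 3.98% lower (9.56% in either direction), so the Rab counts are near the background. The remaining 47 did not pass. Without adjustment, 9 Rab genes had a p under 0.05, as had 23.2% of all genes. The libraries of the groups did not overlap for 6 Rab genes, where 16.2% of all genes did not overlap. The median log2 fold change of the Rab genes was -0.03, and that of all genes was -0.02. The plot of gene sums by role shows most Rab genes near 0 with a few apart from it.

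**Figure D1:**
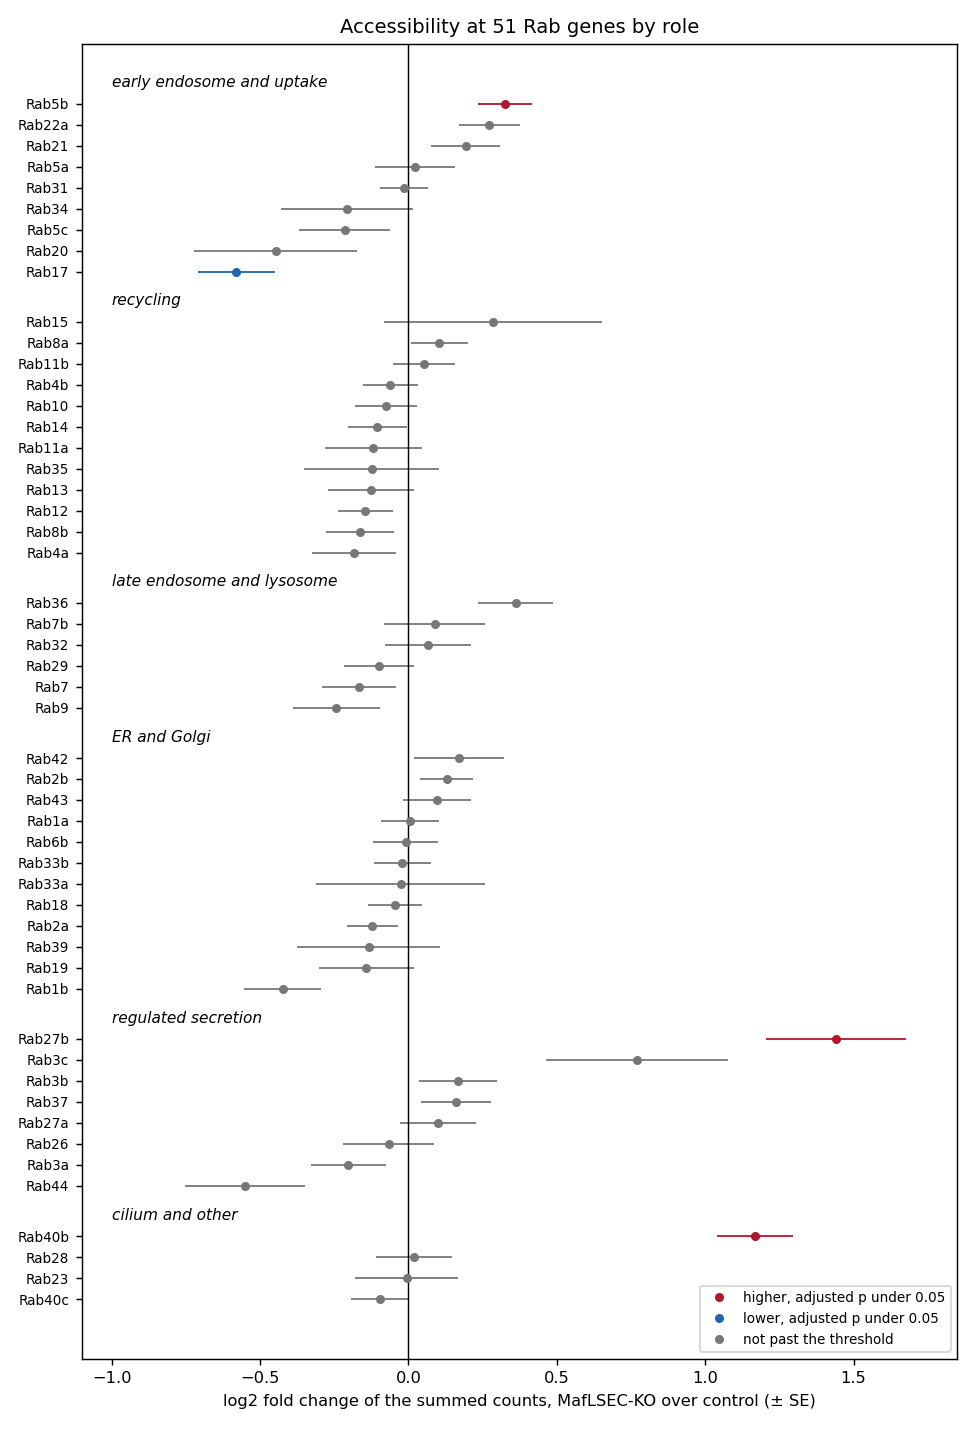
Log2 fold change of summed counts, MafLSEC-KO over control, for 51 Rab genes grouped by role, with points for the edgeR estimate and bars for its SE (4 libraries a group). Rab27b and Rab40b lie above 1, Rab5b is the other gene past the threshold on the higher side, and Rab17 is the only one on the lower side.

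Among the 9 genes of uptake and early endosomes, 1 was higher and 1 lower. Rab17, known from transcytosis in polarised epithelial cells, had 20.2, 18.3, 17.2 and 19.1 CPM in MafLSEC-KO libraries, against 26.2, 25.5, 27.9 and 31.7 CPM in control libraries over its 2 peaks. Every MafLSEC-KO library was below every control, with means of 18.7 ± 1.26 CPM in MafLSEC-KO and 27.8 ± 2.77 CPM in controls (SD, n = 4 each; edgeR log2 fold change -0.58, SE 0.13, adjusted p = 0.0124). Rab5b, a close relative of Rab5a on early endosomes, had 130.1, 141, 140.1 and 122 CPM in MafLSEC-KO libraries, against 98.3, 118, 107 and 102 CPM in control libraries at its single, promoter peak (edgeR log2 fold change 0.33, SE 0.09, adjusted p = 0.0382). The groups did not overlap, but the call was lost without MafLSEC-KO replicate 1, 2 or 3 (adjusted p = 0.108, 0.17 and 0.119) or control replicate 1, 2 or 3 (adjusted p = 0.0923, 0.0555 and 0.0629; edgeR). Rab5a had 172, 171, 179.6 and 123 CPM in MafLSEC-KO libraries, against 173, 168, 170.4 and 124 CPM in control libraries (edgeR log2 fold change 0.02, SE 0.13, adjusted p = 0.943). The low value in each group came from its replicate 4, which is the deepest library of that group. Rab31, which acts between the trans-Golgi network and endosomes, averaged 134 ± 5.07 CPM in MafLSEC-KO and 135 ± 5.13 CPM in controls over 11 peaks (log2 fold change -0.01, SE 0.08, adjusted p = 0.938, edgeR). The other members lay between -0.45 (Rab20) and 0.27 (Rab22a) on the log2 scale.

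None of the 12 recycling genes passed the edgeR test for gene sums (smallest adjusted p = 0.383, for Rab12). Of the 12, 0 had an unadjusted edgeR p under 0.05, and 0 were called by DESeq2. Their log2 fold changes ran between -0.18 and 0.29, with 9 of 12 below 0, as were 9364 of all 17740 gene sums. Rab8a averaged 145 ± 11.6 CPM in MafLSEC-KO and 135 ± 12.2 CPM in controls (edgeR log2 fold change 0.10, SE 0.10, adjusted p = 0.565). Rab11b, a marker of recycling endosomes, averaged 125 ± 7.67 CPM in MafLSEC-KO and 120.3 ± 15.9 CPM in controls (edgeR log2 fold change 0.05, SE 0.10, adjusted p = 0.819). Among the 6 genes of late endosomes and lysosomes none passed with edgeR (1 had an unadjusted p under 0.05 and was called by DESeq2, Rab36), and the log2 fold changes ran between -0.24 and 0.36. Rab7, which directs late endosomes to lysosomes, had 69.7, 55.1, 70.3 and 51.05 CPM in MafLSEC-KO libraries, against 68.8, 59.8, 74.2 and 72.8 CPM in control libraries (edgeR log2 fold change -0.17, SE 0.12, adjusted p = 0.47). Rab9, which returns mannose 6-phosphate receptors from late endosomes to the Golgi, averaged 54.98 ± 7.38 CPM in MafLSEC-KO and 65.2 ± 12.3 CPM in controls (edgeR log2 fold change -0.24, SE 0.15, adjusted p = 0.359). The value of Rab9 in control replicate 4 (47.3 CPM) was below its other controls, and without that library its log2 fold change was -0.38 (edgeR adjusted p = 0.0283). In that fit 1360 of all gene sums were lower, where 706 were with all libraries. Rab36, linked to the position of late endosomes and lysosomes, stood at 26.1, 27.8, 27.01 and 25.3 CPM in MafLSEC-KO libraries, against 24.2, 19.5, 19.6 and 19.7 CPM in control libraries, without overlap but short of the threshold (edgeR log2 fold change 0.36, SE 0.13, adjusted p = 0.0968).

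The 12 genes of the ER and Golgi held no edgeR call either (1 had an unadjusted p under 0.05 and was called by DESeq2, Rab1b), with log2 fold changes between -0.42 and 0.17. Rab2a and Rab1a, both of traffic between ER and Golgi, averaged 114 ± 5.36 CPM in MafLSEC-KO and 124 ± 7.29 CPM in controls (edgeR log2 fold change -0.12, SE 0.09, adjusted p = 0.436), and 111 ± 11.6 CPM in MafLSEC-KO and 111 ± 5.10 CPM in controls (edgeR log2 fold change 0.01, SE 0.10, adjusted p = 0.981). Rab1b, a near relative of Rab1a, had 22.4, 27.2, 23.6 and 28.2 CPM in MafLSEC-KO libraries, against 28.97, 36.2, 32.7 and 37.8 CPM in control libraries at its promoter peak, all MafLSEC-KO libraries below all controls (edgeR log2 fold change -0.42, SE 0.13, adjusted p = 0.0593). Among the 8 genes of regulated secretion 1 was higher. Rab27b, which docks secretory granules and takes part in exosome release, had 23.1, 19.9, 25.8 and 19.9 CPM in MafLSEC-KO libraries, against 9.04, 5.996, 12.8 and 5.76 CPM in control libraries over 2 peaks. The lowest MafLSEC-KO library was above the highest control, with means of 22.2 ± 2.85 CPM in MafLSEC-KO and 8.40 ± 3.30 CPM in controls (SD, n = 4 each; edgeR log2 fold change 1.44, SE 0.24, adjusted p = 0.00198). Its relative Rab27a, known in endothelium from the Weibel-Palade bodies, had 90.8, 91.9, 87.6 and 92.6 CPM in MafLSEC-KO libraries, against 74.2, 74.9, 76.7 and 111 CPM in control libraries (edgeR log2 fold change 0.10, SE 0.13, adjusted p = 0.709). Control replicate 4 alone was above the MafLSEC-KO libraries, and without it the log2 fold change was 0.27 (edgeR adjusted p = 0.0462). In that fit 1480 of all gene sums were higher, where 990 were with all libraries. Rab3a, of synaptic and other regulated vesicles, averaged 139 ± 14.4 CPM in MafLSEC-KO and 159 ± 29.7 CPM in controls (edgeR log2 fold change -0.20, SE 0.13, adjusted p = 0.379). With the log2 total count as a covariate its log2 fold change was -0.32 (edgeR adjusted p = 0.00422). Without control replicates 1 and 3 it was -0.39 (edgeR adjusted p = 0.0313). Of all gene sums, 1974 were lower with the covariate and 1290 without these controls, where 706 were in the main fit.

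Of the 4 remaining genes 1 was higher. Rab40b (ENSMUSG00000025170), whose family carries a SOCS box that recruits a cullin ubiquitin ligase, had 31.7, 34.2, 30.8 and 38.2 CPM in MafLSEC-KO libraries, against 14.02, 16.2, 14.8 and 14.98 CPM in control libraries at its only peak. The groups were far apart, with means of 33.7 ± 3.29 CPM in MafLSEC-KO and 14.98 ± 0.882 CPM in controls (SD, n = 4 each), and Rab40b had the smallest p of all Rab genes (edgeR log2 fold change 1.17, SE 0.13, adjusted p = 0.000128). Its relative Rab40c averaged 170.1 ± 16.2 CPM in MafLSEC-KO and 182 ± 17.5 CPM in controls (edgeR log2 fold change -0.10, SE 0.10, adjusted p = 0.605), and Rab28, known from cilia and photoreceptors, 119.8 ± 9.47 CPM in MafLSEC-KO and 119 ± 21.9 CPM in controls over 8 peaks (edgeR log2 fold change 0.02, SE 0.13, adjusted p = 0.952). The calls of Rab40b, Rab27b and Rab17 remained without any single library and under all 9 other settings tried for each. Rab24, Rab25, Rab9b, Rab38, Rab6a, Rab30, Rab39b, Rab41 and Rab3d were not analysed here.

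**Figure D2:**
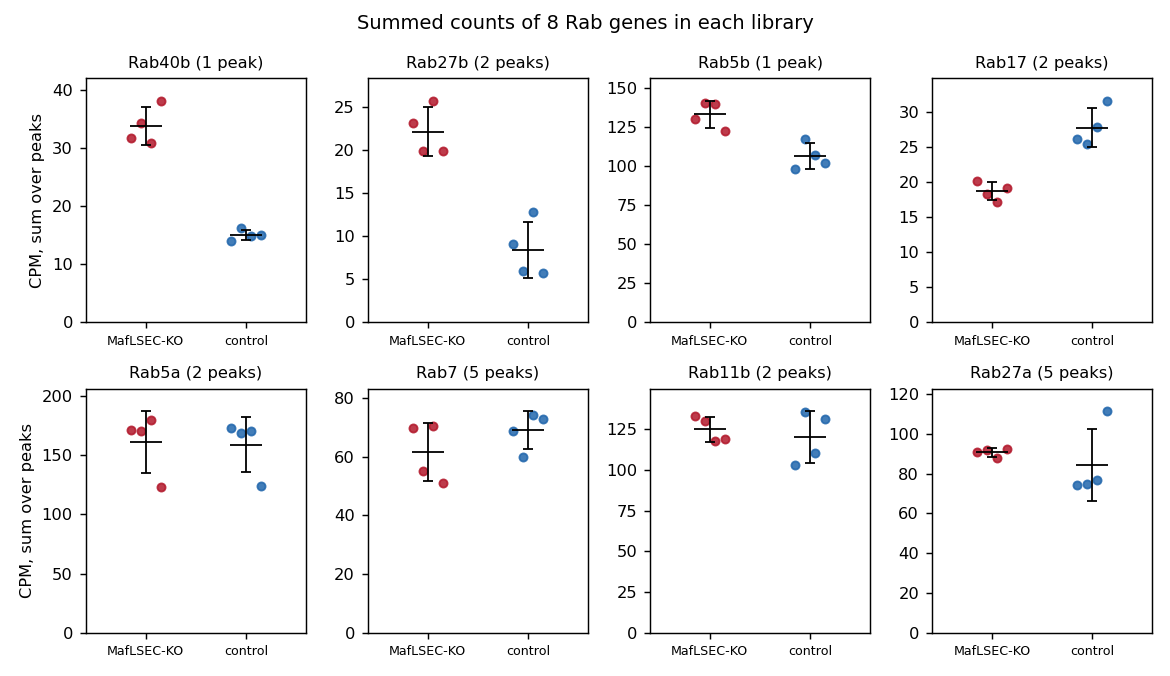
Summed counts in CPM (vertical axes from 0) of 8 Rab genes in each library, MafLSEC-KO left of control, with points for libraries and black lines for mean ± SD (n = 4). Rab40b, Rab27b and Rab5b are higher and Rab17 lower in MafLSEC-KO without overlap, while the sums of Rab5a, Rab7, Rab11b and Rab27a overlap between the groups.

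More calls came from single peaks. Of 144 Rab peaks tested with edgeR over 58226 peaks, 10 were higher and 9 lower in MafLSEC-KO, beside 8.99% and 6.46% of all peaks, so the shares of Rab peaks (10 and 9 of 144) are again near the background. They belonged to 17 genes, 9 with higher and 8 with lower peaks. Only 2 of these genes (Rab27b and Rab11a) had 2 or more called peaks and could have shown both directions, and 0 did. The groups did not overlap at 19 Rab peaks, where 19.4% of all peaks did not. A peak in an intron of Rab1a had too few counts to be tested. Leaving out each library in turn, 9 of the 19 calls remained in every fit (6 higher and 3 lower), and 0 of the 19 changed sign under any setting.

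The 6 gains that remained without any single library lay at 5 genes. The Rab40b promoter peak (chr11:121387580-121388775), over the start and the beginning of the coding sequence, had 31.7, 34.9, 31.2 and 38.1 CPM in MafLSEC-KO libraries, against 13.8, 16.4, 14.5 and 14.7 CPM in control libraries (edgeR log2 fold change 1.19, SE 0.14, adjusted p = 1.32e-05). At Rab27b on chromosome 18, both listed peaks gained. The peak over the 5′ UTR, 310 bases from the listed start, had 15.2, 13.6, 17.02 and 12.03 CPM in MafLSEC-KO libraries, against 6.17, 3.73, 9.08 and 2.86 CPM in control libraries (edgeR log2 fold change 1.47, SE 0.28, adjusted p = 0.00108). The intron peak, 1720 bases before the start of another transcript, had 7.97, 6.63, 9.09 and 7.85 CPM in MafLSEC-KO libraries, against 2.72, 2.36, 3.49 and 2.79 CPM in control libraries (edgeR log2 fold change 1.48, SE 0.24, adjusted p = 0.000316). At both, all MafLSEC-KO libraries were above all controls. Rab7b, which acts between late endosomes and the trans-Golgi network, gained a peak in its 3′ UTR (chr1:131714540-131714976), with 4.13, 5.07, 3.86 and 4.35 CPM in MafLSEC-KO libraries, against 0.726, 1.24, 2.44 and 0.602 CPM in control libraries (edgeR log2 fold change 1.88, SE 0.39, adjusted p = 0.00257). It rested on 28 to 55 reads per MafLSEC-KO library and 4 to 14 reads per control library. Rab3b, of regulated exocytosis, gained an intron peak (chr4:108909678-108910421) with 12.1, 10.6, 12.01 and 12.5 CPM in MafLSEC-KO libraries, against 6.90, 4.85, 8.91 and 6.17 CPM in control libraries (edgeR log2 fold change 0.83, SE 0.21, adjusted p = 0.00882). The peak assigned to Rab6b, a Golgi Rab (chr9:103072793-103073345), lay 39005 bases before its start, within Slco2a1, the gene of a prostaglandin transporter. It had 12.1, 16.1, 13.99 and 13.4 CPM in MafLSEC-KO libraries, against 3.81, 6.22, 7.51 and 10.5 CPM in control libraries (edgeR log2 fold change 0.95, SE 0.23, adjusted p = 0.00879). Slco2a1 surrounds this peak, so the assignment to Rab6b rests on the nearest start alone. The other peaks of Rab3b and Rab6b did not pass (log2 fold changes -0.29 to 0.25, and -0.31 to -0.04).

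The 3 losses that remained without any single library were all distal. In an intron of Rab8b, which serves recycling and exocytosis, a peak (chr9:66886698-66887237) had 7.52, 5.99, 8.15 and 6.74 CPM in MafLSEC-KO libraries, against 13.98, 13.8, 15.5 and 14.5 CPM in control libraries (edgeR log2 fold change -1.03, SE 0.18, adjusted p = 0.000564). The other 5 Rab8b peaks ran between -0.18 and 0.29 on the log2 scale without a call. Upstream of Rab7, 8697 bases before the start, the intergenic peak (chr6:88053772-88054163) had 6.05, 4.70, 5.95 and 3.58 CPM in MafLSEC-KO libraries, against 7.99, 10.6, 11.7 and 11.1 CPM in control libraries (edgeR log2 fold change -1.05, SE 0.22, adjusted p = 0.00313). Its other 4 peaks ran between -0.10 and 0.16. Upstream of Rab17, 5605 bases before the start, the peak with a core MAF and 2 AP-1 matches (chr1:90975056-90975394) had 5.75, 9.12, 8.04 and 6.57 CPM in MafLSEC-KO libraries, against 12.9, 14.4, 10.5 and 17.2 CPM in control libraries (edgeR log2 fold change -0.90, SE 0.20, adjusted p = 0.00479). All MafLSEC-KO libraries were below all controls at these 3 peaks. The other Rab17 peak had a log2 fold change of -0.27 (edgeR adjusted p = 0.391).

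**Figure D3:**
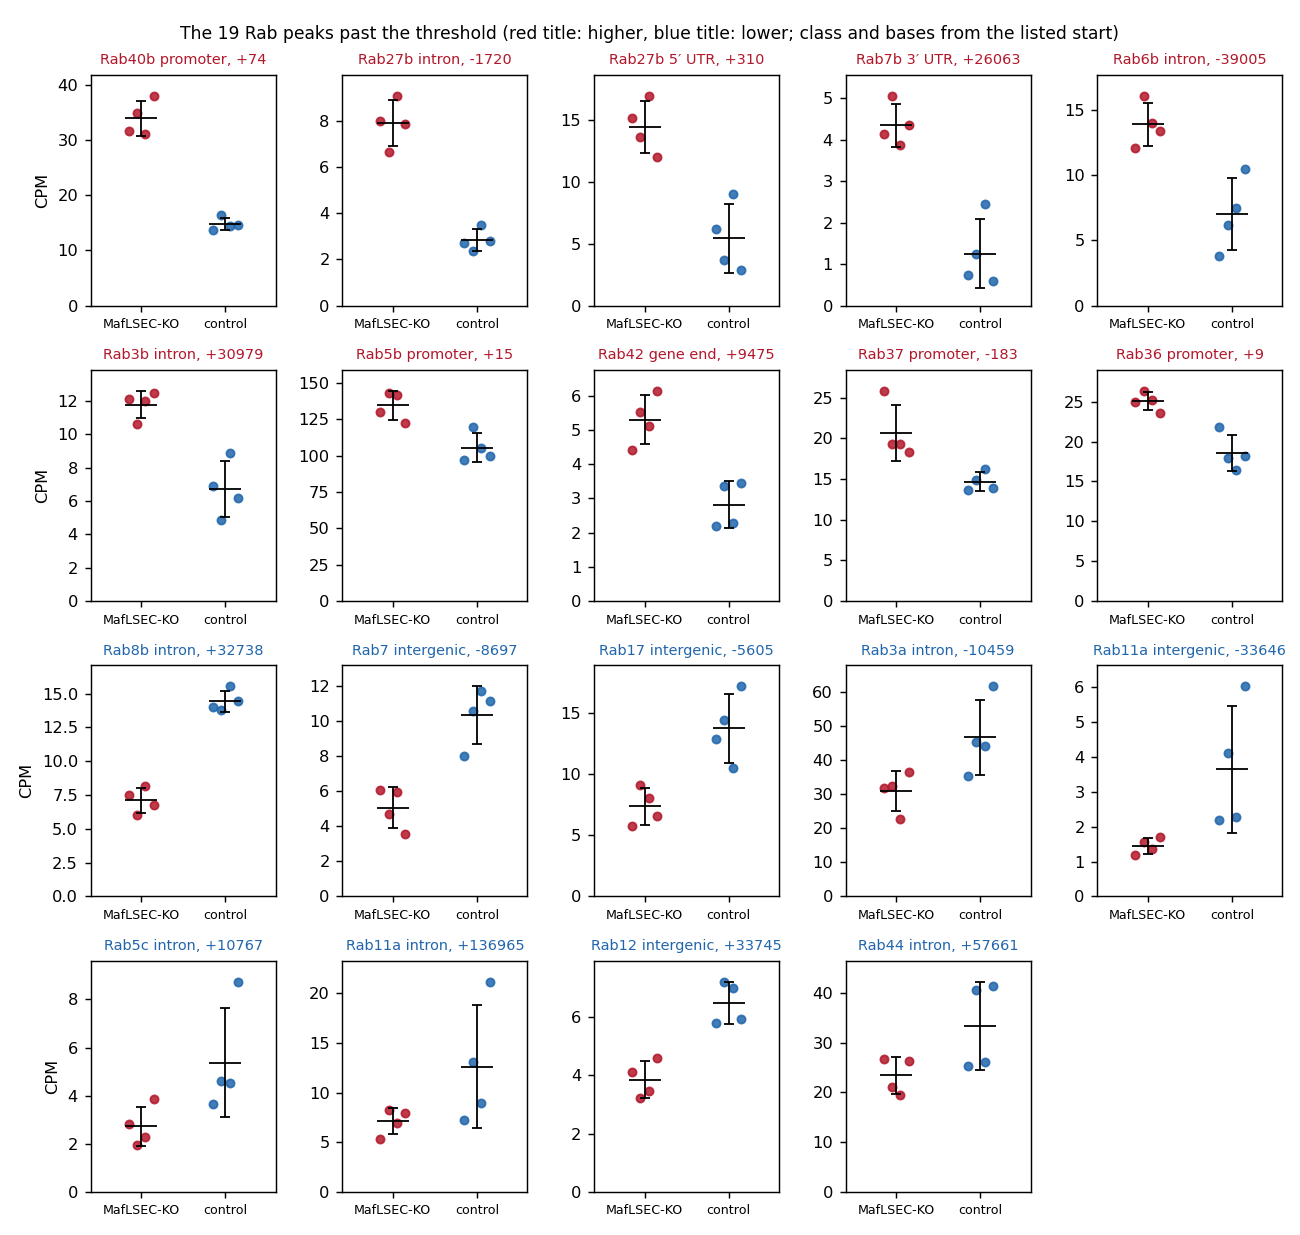
Counts in CPM (vertical axes from 0) of the 19 Rab peaks past the threshold, MafLSEC-KO left of control, with points for libraries and black lines for mean ± SD (n = 4). The 10 peaks with red titles are higher in MafLSEC-KO and the 9 with blue titles lower, and single deep controls stand above the rest at Rab11a and Rab5c.

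The other 10 calls were lost without at least 1 library. On the higher side, the Rab5b promoter peak (chr10:128695670-128696837) averaged 134 ± 9.94 CPM in MafLSEC-KO and 105 ± 10.05 CPM in controls (edgeR log2 fold change 0.35, SE 0.11, adjusted p = 0.0294) and was lost without MafLSEC-KO replicate 1, 2 or 3 or control replicate 1 or 3 (adjusted p up to 0.101). The promoter peak of Rab37, of granule exocytosis (chr11:115153622-115154369), averaged 20.7 ± 3.46 CPM in MafLSEC-KO and 14.7 ± 1.20 CPM in controls (edgeR log2 fold change 0.49, SE 0.16, adjusted p = 0.0449) and stayed past the threshold only without control replicate 3. Its p without MafLSEC-KO replicate 1, the highest library at 25.8 CPM, was 0.187 (edgeR, adjusted). The Rab36 promoter peak (chr10:75036895-75037576) averaged 25.05 ± 1.12 CPM in MafLSEC-KO and 18.6 ± 2.28 CPM in controls (edgeR log2 fold change 0.43, SE 0.14, adjusted p = 0.0464) and stayed only without control replicate 1 (adjusted p up to 0.138 without any other). A peak assigned to Rab42 (chr4:132293733-132294029), at the end of Taf12, the gene of a TFIID subunit, averaged 5.30 ± 0.721 CPM in MafLSEC-KO and 2.82 ± 0.687 CPM in controls (edgeR log2 fold change 0.88, SE 0.27, adjusted p = 0.0304) and stayed only without MafLSEC-KO replicate 1 or control replicate 4 (adjusted p up to 0.0935 otherwise).

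On the lower side, the wide peak assigned to Rab3a (chr8:70743137-70745304), which lay in Pde4c, the gene of a cAMP phosphodiesterase, had 32.01, 32.5, 22.9 and 36.6 CPM in MafLSEC-KO libraries, against 35.4, 45.5, 44.4 and 61.8 CPM in control libraries (edgeR log2 fold change -0.60, SE 0.17, adjusted p = 0.0177; adjusted p = 0.0749 without MafLSEC-KO replicate 3). Both called peaks of Rab11a, of recycling endosomes, were highest in control replicate 4. The intergenic peak (chr9:64771286-64771518) had 1.18, 1.57, 1.36 and 1.71 CPM in MafLSEC-KO libraries, against 2.18, 4.10, 2.27 and 6.02 CPM in control libraries (edgeR log2 fold change -1.36, SE 0.38, adjusted p = 0.0181), and was lost without that control (adjusted p = 0.0906), MafLSEC-KO replicate 3 (0.0527) or control replicate 2 (0.0556). The far peak (chr9:64600513-64601069), 136965 bases from the start in Megf11, averaged 7.08 ± 1.31 CPM in MafLSEC-KO and 12.6 ± 6.20 CPM in controls (edgeR log2 fold change -0.86, SE 0.27, adjusted p = 0.0371), with adjusted p = 0.168 without control replicate 4. It stayed only without control replicate 1 or 3. A Rab5c intron peak (chr11:100727339-100727558) averaged 2.72 ± 0.827 CPM in MafLSEC-KO and 5.38 ± 2.28 CPM in controls (edgeR log2 fold change -1.02, SE 0.32, adjusted p = 0.0353), with adjusted p = 0.17 without control replicate 4. It was lost also without MafLSEC-KO replicate 1, 2 or 3 or control replicate 2. An intergenic peak of Rab12, which directs transferrin receptor to degradation (chr17:66485724-66486126), averaged 3.85 ± 0.634 CPM in MafLSEC-KO and 6.49 ± 0.713 CPM in controls without overlap (edgeR log2 fold change -0.75, SE 0.24, adjusted p = 0.0376) and stayed only without MafLSEC-KO replicate 4 or control replicate 1 or 4 (adjusted p up to 0.126 otherwise). The peak assigned to Rab44, a large Rab of secretory granules (chr17:29171074-29172611), lay in Cpne5 and averaged 23.4 ± 3.67 CPM in MafLSEC-KO and 33.4 ± 8.86 CPM in controls (edgeR log2 fold change -0.53, SE 0.18, adjusted p = 0.0478; lost in 6 of 8 fits without a library, adjusted p up to 0.178). It stayed only without control replicate 1 or 3.

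The calls were then split into promoter and distal peaks. Of 26 Rab promoter peaks 4 were higher and 0 lower with edgeR, beside 5.56% and 1.65% of all promoter peaks. Of the 26, 6 had an unadjusted edgeR p under 0.05, as had 1274 of all 7751 promoter peaks. DESeq2 called the Rab1b promoter lower. Of 118 Rab distal peaks 6 were higher and 9 lower, beside 9.52% and 7.20% of all distal peaks. Intergenic Rab peaks, 42 in all, held 0 higher and 4 lower calls (10.2% and 7.60% of all intergenic peaks). Of the 42, 7 had an unadjusted edgeR p under 0.05, as had 6605 of all 20745 intergenic peaks. A log2 fold change below 0 was seen in 31 of the 42 and in 11354 of all 20745. Intron peaks held 3 higher and 5 lower calls of 58 (9.44% and 7.29% of all intron peaks). The median log2 fold change was 0.03 over Rab promoter peaks and 0.04 over all promoter peaks. It was -0.07 over Rab distal peaks and -0.02 over all distal peaks, and -0.17 over the intergenic Rab peaks and -0.06 over all intergenic peaks. Peaks of 1 gene share its locus, so these counts describe the set and carry no test. The plot against distance shows the lower calls at 5605 bases or more from a start.

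**Figure D4:**
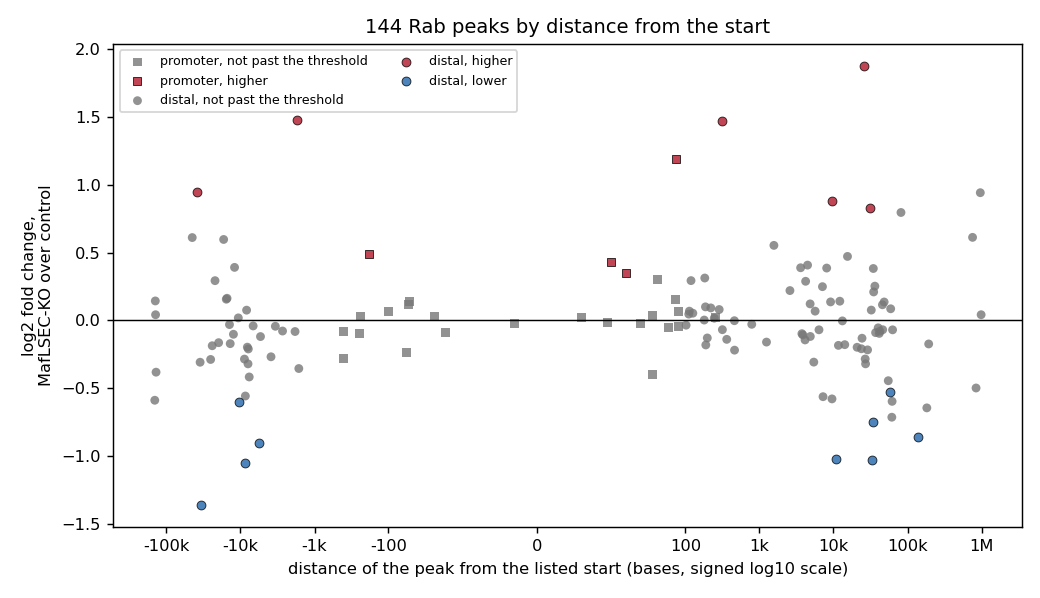
Log2 fold change, MafLSEC-KO over control, of 144 Rab peaks against their distance from the listed start (signed log10 scale, bases), with squares for promoter peaks and circles for distal peaks (edgeR, 4 libraries a group). Promoter peaks past the threshold are all higher, and all 9 lower peaks lie 5605 bases or more from the start.

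When counts were summed by class, 1 of 25 Rab promoter sums passed the edgeR test (Rab40b, higher), where 4.16% of all promoter sums did (3.02% higher and 1.14% lower). Rab1b, Rab5b, Rab36, Rab37 and Rab22a did not overlap between groups either (10.8% of all promoter sums did not), with edgeR adjusted p of 0.0837, 0.0861, 0.121, 0.124 and 0.158. Rab22a, of early endosomes, had 79.3, 69.3, 73.6 and 68.97 CPM in MafLSEC-KO libraries, against 59.4, 57.9, 68.9 and 54.6 CPM in control libraries at its promoter. Of 45 distal sums, 3 passed, beside 13.4% of all distal sums (7.27% higher and 6.13% lower): Rab27b and Rab42 higher and Rab17 lower. The distal sum of Rab42, the single peak at Taf12, averaged 5.26 ± 0.721 CPM in MafLSEC-KO and 2.84 ± 0.675 CPM in controls (edgeR log2 fold change 0.85, SE 0.26, adjusted p = 0.0441), while its promoter averaged 17.4 ± 3.64 CPM in MafLSEC-KO and 17.2 ± 1.22 CPM in controls (edgeR log2 fold change 0.01, SE 0.17, adjusted p = 0.988). Where every peak within 1000 bases of the listed start was counted as promoter, 44 Rab genes had a sum, 19 of them with no annotated promoter peak, and 2 passed, both higher: Rab40b and Rab27b (3.69% of all such sums were higher and 1.40% lower). The single Rab5b peak passed in 2 of 4 fits, as a gene sum and as a peak but neither as a promoter sum nor as a sum near the start (edgeR adjusted p = 0.0732). Rab27b counts as distal by its annotation and as near the start by distance (near sum: edgeR log2 fold change 1.45, SE 0.29, adjusted p = 0.00549).

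The difference between distal and promoter change within a gene was tested with limma on log2 CPM of the distal sum minus that of the promoter sum, over 4924 genes of which 19 were Rab genes. It passed for 2 of the 19 (17.2% of all genes, 6.82% higher and 10.4% lower): Rab5a, lower, and Rab42, higher. For Rab5a the log2 distal minus promoter value was -4.95, -5.19, -5.37 and -5.53 in MafLSEC-KO, against -4.34, -4.49, -4.89 and -4.83 in controls, with no overlap (difference -0.62, SE 0.18, limma adjusted p = 0.021). Its distal sum, an intron peak 9576 bases from the start, had 5.16, 4.34, 4.02 and 2.39 CPM in MafLSEC-KO libraries, against 7.93, 6.97, 5.34 and 3.996 CPM in control libraries, which overlap (edgeR log2 fold change -0.60, SE 0.30, adjusted p = 0.208). Its promoter had 166, 166, 176 and 120.4 CPM in MafLSEC-KO libraries, against 165, 161, 165 and 120.0 CPM in control libraries. For Rab42 the value was -1.61, -2.01, -1.70 and -1.35 in MafLSEC-KO, against -2.80, -2.24, -2.74 and -2.36 in controls (difference 0.87, SE 0.29, limma adjusted p = 0.0415). Rab5a was lost without MafLSEC-KO replicate 3 or 4 or control replicate 1 or 2 (limma adjusted p = 0.0666, 0.0599, 0.0673 and 0.0654). Rab42 stayed past the threshold only without control replicate 2 or 4 (adjusted p up to 0.112 without any other library). The other 17 genes had differences between -0.58 (Rab37) and 0.76 (Rab18), with limma adjusted p of 0.069 or more.

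**Figure D5:**
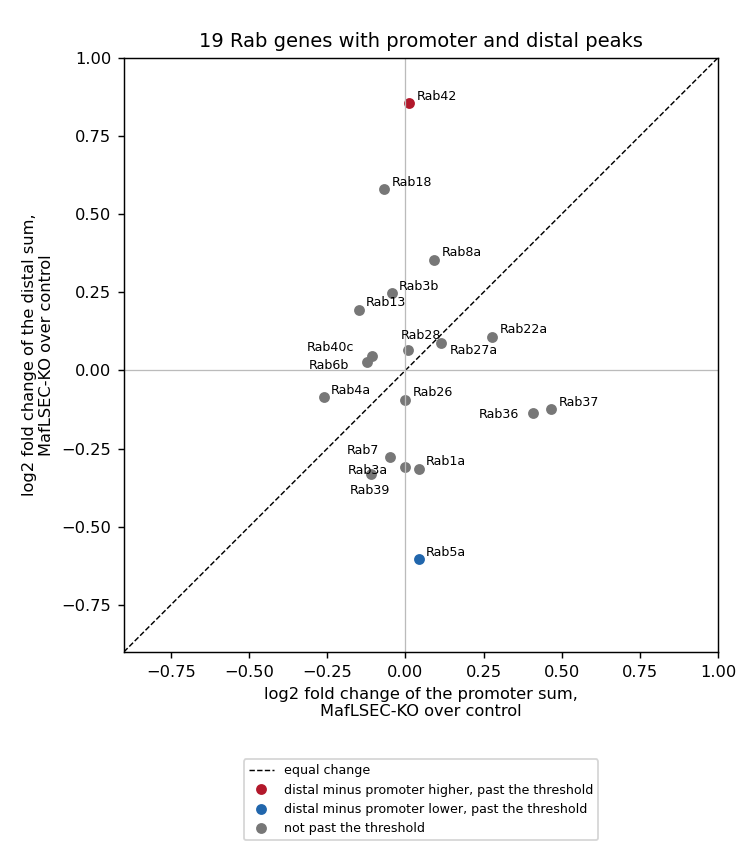
Log2 fold change of the distal sum against that of the promoter sum, MafLSEC-KO over control, for 19 Rab genes with both kinds of peak (each point is 1 gene, from edgeR fits with 4 libraries a group), and the dashed line of equal change. Rab42 lies above the line and Rab5a below it, both with a promoter value near 0.

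The proteins that act on Rabs were read from gene sums in the same edgeR fit, by lists chosen with earlier results of these data known. Of 36 exchange factors measured, 3 were higher (Rin1, Trappc9 and Dennd5b) and 2 lower (Dennd2d and Hps1), beside 5.58% and 3.98% of all genes, with a median log2 fold change of -0.01. Rin1, an exchange factor for RAB5, had 23.6, 28.9, 23.6 and 27.4 CPM in MafLSEC-KO libraries, against 10.5, 14.1, 12.5 and 19.98 CPM in control libraries, the MafLSEC-KO libraries all above the controls (edgeR log2 fold change 0.83, SE 0.19, adjusted p = 0.0124). Hps1, of the complex that activates RAB32 and RAB38, averaged 122 ± 7.41 CPM in MafLSEC-KO and 168 ± 25.02 CPM in controls, also without overlap (edgeR log2 fold change -0.47, SE 0.11, adjusted p = 0.0138). Trappc9, of the TRAPPII complex, averaged 115 ± 3.93 CPM in MafLSEC-KO and 86.9 ± 12.02 CPM in controls, Dennd5b 153 ± 14.6 CPM in MafLSEC-KO and 121 ± 11.1 CPM in controls and Dennd2d 81.2 ± 4.61 CPM in MafLSEC-KO and 107 ± 6.38 CPM in controls (edgeR log2 fold changes 0.41, 0.34 and -0.39, with adjusted p = 0.0253, 0.0468 and 0.0134).

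Of 32 GTPase-activating proteins 1 was higher and 2 were lower, beside the same 5.58% and 3.98% of all genes, with a median of -0.05. Sgsm1 was the largest change of the partner lists and had the lowest summed CPM of the called partners. It had 5.89, 7.41, 5.26 and 5.89 CPM in MafLSEC-KO libraries, against 2.95, 1.35, 1.78 and 1.15 CPM in control libraries (edgeR log2 fold change 1.84, SE 0.32, adjusted p = 0.0028). Tbc1d1, known for control of glucose transporter traffic in muscle, had 243, 241, 229 and 232 CPM in MafLSEC-KO libraries, against 315, 313, 294 and 351 CPM in control libraries (edgeR log2 fold change -0.43, SE 0.08, adjusted p = 0.00347). Evi5, which binds RAB11, averaged 64.3 ± 2.09 CPM in MafLSEC-KO and 80.5 ± 2.74 CPM in controls (edgeR log2 fold change -0.32, SE 0.09, adjusted p = 0.0306). At all 3 genes the groups did not overlap. Of 48 effectors and tethers 1 was higher and 0 lower with edgeR (8 had an unadjusted p under 0.05, as had 23.2% of all genes). It was Eea1, whose protein binds RAB5 and tethers early endosomes, with 207, 187, 226 and 190.0 CPM in MafLSEC-KO libraries, against 152, 151, 181 and 147 CPM in control libraries (edgeR log2 fold change 0.36, SE 0.10, adjusted p = 0.0288), again without overlap. Of the 9 genes of Rab prenylation and the membrane cycle, 0 passed in either direction with edgeR, and 0 had an unadjusted p under 0.05.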

How the data were processed

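ATAC-seq was carried out on 4 MafLSEC-KO and 4 control libraries of mouse LSECs. Reads trimmed by Trimmomatic were aligned by the authors with Bowtie2 (mm10), and duplicates were discarded (Picard). Their MACS2 peaks from both groups were joined by bedtools 2.30.0, annotated by HOMER 4.11 and deposited with the raw read count of each library in each peak. Merging means that every library was counted over the same regions. Whether MACS2 was run per library or on pooled reads, and whether reads were shifted for the Tn5 cut, is not given in the sources used here. The authors deposited in the same table signal columns, made by dividing counts by a size factor per library, RPKM columns, and the log2 fold changes and p-values of their DESeq2 1.42.1 comparison, and none of these columns was used. Annotated distances to a start are those of the deposited table.

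Counts were taken as deposited, per peak and summed per gene over all peaks, over promoter peaks (annotation promoter-TSS) and over the rest. Rows without a gene name, 0.070% to 0.082% of counts, were kept out of the sums per gene. Counts were scaled by TMM and tested with edgeR 4.0.16 (filterByExpr, robust quasi-likelihood test, two-sided) in R 4.3.3, over every feature in the table, with Benjamini-Hochberg adjustment and a threshold of 0.05. Distal minus promoter differences were tested with limma 3.58.1 at a prior count of 2. SE was the absolute log2 fold change divided by the root of F. Alternatives were DESeq2 1.42.0, other scaling, low-count filters, promoter definitions, the log2 total count as a covariate, the replicate number as a block, and the omission of libraries. The fitting steps were tested on simulated data. CPM values were TMM-scaled, and mean ± SD is over 4 libraries. The depth of 5.37 to 13.36 M counts per library sets the counting error. Motif letters were searched in mm10 sequence, and gene bodies were read from a GENCODE annotation and promoters from RefSeq (build mm10).

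Full values were given for every called Rab sum and for the called Rab peaks with the smallest p (at most 10 per direction). They were also given for genes with a called distal minus promoter difference. In each role the 2 genes with the highest mean CPM, summed over all their peaks, were added. Such sums grow with the number and width of peaks. Partner genes were named when called, up to 3 per list and direction. Members, role groups and lists were chosen with earlier results of these data known. Genes named outside this rule (Rab1b, Rab36, Rab22a, Rab12 and Rab20 among the sums) were chosen after their values were seen.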

Additional observations from a re-analysis of the deposited data

Results flagged for a closer look

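Within groups of 4 libraries, 4 values of the 72 groups screened lay far from the other 3, where chance flags about 1 in 20 groups. The Rab5a sum was 123 CPM in MafLSEC-KO replicate 4, with the other MafLSEC-KO libraries at 171 to 180 CPM, and 124 CPM in control replicate 4, with the other controls at 168 to 173 CPM. These libraries are the deepest of their groups, and the part of depth was not tested in Rab5a. The Rab27a sum was 111 CPM in control replicate 4, with the other controls at 74.2 to 76.7 CPM. The Rab37 promoter peak held 25.8 CPM in MafLSEC-KO replicate 1, with the other MafLSEC-KO libraries at 18.3 to 19.4 CPM.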

How the results depend on the processing

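The numbers of Rab sums called, 3 higher and 1 lower, were 5 and 3 with the replicate block, 7 and 6 when the log2 total was a covariate, and 1 and 0 from promoter peaks alone. The lower sums numbered 5 without control replicates 1 and 3, and 2 with DESeq2, where 1290 and 1045 of all gene sums were lower. The Rab peaks called, 10 higher and 9 lower, were 20 and 16 with the covariate, and 14 and 13 with the replicate block. Over all peaks, the 5235 higher and 3760 lower calls became 8613 and 6619 with the covariate, and 8266 and 6273 with the replicate block. The lower Rab peaks numbered 5 at a mean of at least 50 counts, where 39726 peaks were tested and 2844 were lower. That filter left the called peaks of Rab5c and Rab12 and the intergenic peak of Rab11a untested. Without control replicates 1 and 3 the lower Rab peaks numbered 14, where 5641 of all peaks were lower. Promoter sums called, 1 in the edgeR test, were 6 with the replicate block, 6 with the covariate, 2 without control replicates 1 and 3, 3 with DESeq2 and 2 with starts within 1000 bases. Distal sums called, 3 in the edgeR test, were 5 with the replicate block, 10 with the covariate and 8 without control replicates 1 and 3. Calls over all promoter and distal sums were not counted under the other settings, apart from starts within 1000 bases. Without each library in turn, higher sums ranged between 2 and 4, lower sums between 1 and 2, higher peaks between 6 and 10, lower peaks between 3 and 10, promoter sums stayed at 1, distal sums ranged between 2 and 5, and distal minus promoter calls between 0 and 2. The lowest counts of called Rab peaks came without MafLSEC-KO replicate 3 (6 higher and 3 lower), where 3634 of all peaks were higher and 2654 lower. In the fits without each library, 491 to 1480 of all gene sums were higher and 395 to 1360 lower. Of all peaks, 3337 to 5757 were higher and 2481 to 4756 lower in those fits. Calls over all gene sums, 990 higher and 706 lower, were 2165 and 1920 with the replicate block and 2309 and 1974 with the covariate, so the added Rab calls came with more calls in the whole table. Deviations of libraries with the same number correlated at 0.189, 0.095, 0.254 and 0.441, and MafLSEC-KO replicates 1, 3 and 4 correlated best with the control of their own number, while replicate 2 did so with control replicate 4. In both groups the library totals rose in the order of replicates 1, 3, 2 and 4. Pairing and depth can therefore not be told apart from these correlations. The sources state no pairing, and the libraries were treated as sharing only a number. None of the called Rab sums and peaks changed sign under any setting. The cause of these differences was not tested. Several called distal peaks lay under 10 CPM, where the depth of the shallow libraries limits the precision.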
